A study of Mus musculus with 24 samples.

Results

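All 37 genes of the mouse mitochondrial genome had counts in the distal jejunum of these mice. They were taken as every gene whose symbol starts with mt- and that had a count in at least 1 of 24 libraries, and they are 37 of the 34471 genes with a count. On chromosome MT they comprise 13 protein genes, 2 rRNA genes and 22 tRNA genes. RNA was sequenced from 24 C57BL/6 mice of 9 to 11 weeks, 1 library per mouse, to ask how loss of PTK6, an intracellular tyrosine kinase of epithelia, bears on the gut of males and females with and without succinate. The 8 groups of 3 mice were male wild type control, male Ptk6-/- control, male wild type succinate, male Ptk6-/- succinate, and the same for females. Controls drank regular water, and succinate mice drank water with 100 mM succinate, which is sensed by tuft cells, for 7 days. Ptk6 was disrupted in the germline and hence in every cell of the knockout mice, which came from different litters of the colony that also gave the wild type mice.

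Mitochondria keep a small circular genome of their own. It codes for subunits of complex I (the mt-Nd genes), complex III (mt-Cytb), complex IV (mt-Co1 to mt-Co3) and ATP synthase (mt-Atp6 and mt-Atp8), and for the rRNAs and tRNAs with which mitochondria translate them, while all other respiratory chain subunits come from nuclear genes. Both strands are transcribed as long precursors that are cut largely at the tRNAs lying between the other genes. In the small intestine, absorptive enterocytes are rich in mitochondria, whose ATP drives nutrient uptake.

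The libraries were made from RNA bound to oligo dT in 2 rounds, so that values for rRNAs and tRNAs are of molecules that came through this selection. Total counts lay between 8080321 and 52824743. The disrupted gene itself was counted 7 to 61 times per library in the knockout (n = 12) and 284 to 2405 times in the wild type (n = 12). Cytosolic 18S rRNA, counted as Rn18s-rs5, took 51.2% of the counts in replicate 1 of the male wild type controls and 29.7% in replicate 1 of the male Ptk6-/- succinate group, against 0.108% to 4.49% elsewhere. The summed level of a list of heart muscle genes was 20853 CPM (reads scaled to a common total of 1e6 counts) in replicate 2 of the female wild type succinate group and 22.4 to 114 CPM in the other libraries, while enterocyte markers summed to 16853 CPM or more in every library. These 3 libraries stand apart from their groups, and values without them are given beside the results they move most. In bulk tissue, fewer cells of a type and less RNA per cell cannot be told apart.

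Many of the mitochondrial genes have copies in the nuclear genome, and 7 of the 13 protein genes have a near-identical one (at least 99% identical over at least 100 bases). These 7 copies lie together on the minus strand at chr1:24650616-24655278 of the deposited table, whose build is named as GRCm39 in the submitters' processing notes. Gm28661 (mt-Co2), Gm10925 (mt-Atp6), Gm28437 (mt-Co3), Gm10222 (mt-Nd4l) and Gm28439 (the start of mt-Nd4) matched without a mismatch. Gm29216 (the end of mt-Co1) and Gm28438 (mt-Nd3) had 1 mismatch each. Those mismatches are shown here because no other base in the aligned stretches tells a read of the gene from a read of the copy. Capitals mark the base that differs, and positions count from the first base of the mitochondrial gene (A1066T for mt-Co1, at chrMT:6390-6423, and T3C for mt-Nd3, at chrMT:9459-9491, both plus strand; sequences from GENCODE M21 transcripts, GRCm38).
mt-Co1: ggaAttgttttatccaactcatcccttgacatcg
Gm29216: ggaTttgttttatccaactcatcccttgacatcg
mt-Nd3: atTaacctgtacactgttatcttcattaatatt
Gm28438: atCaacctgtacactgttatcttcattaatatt

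The deposited counts of copy and gene were nearly the same where the copy spans the gene. The count of the copy divided by that of its gene had a median over the 24 libraries of 0.991 for mt-Co2 (range 0.969 to 0.999), 1.03 for mt-Atp6 (1.00 to 1.05), 0.992 for mt-Co3 (0.983 to 1.00), 0.998 for mt-Nd4l (0.955 to 1.04) and 0.982 for mt-Nd3 (0.920 to 1.01). Where the copy spans only part of the gene, the ratio was lower and wider: a median of 0.202 for mt-Co1 (0.134 to 0.389) and 0.332 for mt-Nd4 (0.189 to 0.480). Gene and copy therefore cannot be told apart in these counts where the copy spans the gene. For mt-Co1 and mt-Nd4 the copy covers 31.3% and 63.6% of the gene, and reads of that stretch match both. How reads that match both were counted is not given in the sources used here. The copies together took a further 0.371% to 3.86% of each library's counts.

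**Figure D1:**
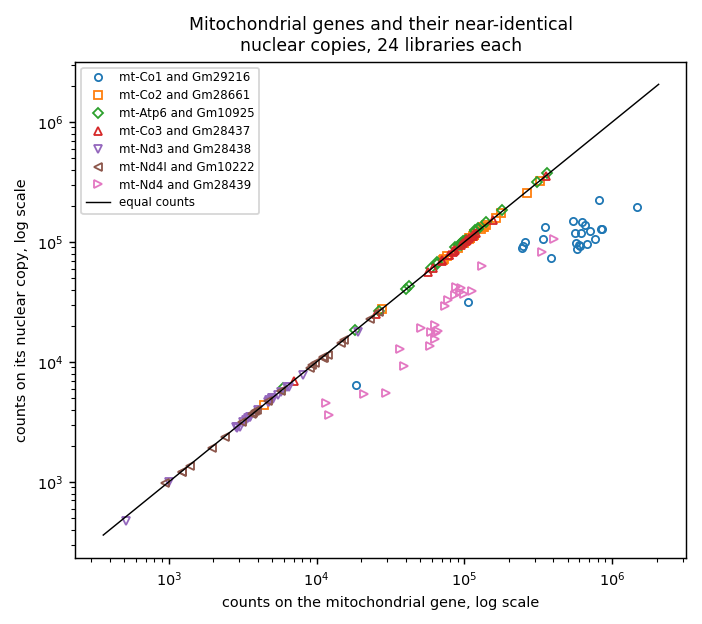
Counts on 7 mitochondrial protein genes (horizontal axis, log scale) against counts on their near-identical nuclear copies (vertical axis, log scale), 1 point per library and pair. Pairs in which the copy spans the whole gene follow the line of equal counts, and mt-Co1 and mt-Nd4, which are spanned in part, lie below it.

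A second source of shared reads is overlap within the mitochondrial genome. The end of mt-Atp8 and the start of mt-Atp6 share 43 bases, shown in capitals (chrMT:7897-7969 and chrMT:7927-7999, plus strand, GENCODE M21), and both genes code for parts of the membrane portion of ATP synthase.
mt-Atp8: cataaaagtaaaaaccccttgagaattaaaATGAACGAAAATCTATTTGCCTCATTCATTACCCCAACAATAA
mt-Atp6: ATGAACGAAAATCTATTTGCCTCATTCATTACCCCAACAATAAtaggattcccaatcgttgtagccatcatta

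The same holds for mt-Nd4l and mt-Nd4, for mt-Nd5 and mt-Nd6 on opposite strands, and for the end of mt-Co1 and mt-Ts1 on opposite strands, so that values of neighbours are not independent. The 3 tRNAs with most counts are shown with the anticodon in capitals, since the results below turn on them: mt-Ts1 (a serine tRNA, chrMT:6870-6938, minus strand), mt-Te (glutamate, chrMT:14071-14139, minus strand) and mt-Tl1 (a leucine tRNA, chrMT:2676-2750, plus strand).
mt-Ts1: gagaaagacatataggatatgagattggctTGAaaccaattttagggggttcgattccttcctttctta
mt-Te: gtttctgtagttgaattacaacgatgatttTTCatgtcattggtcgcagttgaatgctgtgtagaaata
mt-Tl1: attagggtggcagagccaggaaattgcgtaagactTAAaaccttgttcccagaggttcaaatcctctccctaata

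Protein genes made up 93.5% of the 37221953 counts on the 37 genes, rRNA genes 6.18% and tRNA genes 0.305%. All 37 together took 1.39% to 13.6% of a library's counts, with a median of 3.15%. The highest share was that of the library with heart transcripts.

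The protein gene share was lower in males in each of the 4 strata of genotype and treatment, but the sex difference did not pass the test. In male wild type controls it was 1.14%, 2.77% and 2.90% of counts, and in male Ptk6-/- controls 3.69%, 3.03% and 3.26%, without overlap. With succinate it was 3.92%, 1.16% and 1.83% in male wild type mice and 1.46%, 2.68% and 4.0% in male Ptk6-/- mice. Both succinate groups of males overlapped the controls of their genotype.
In female wild type controls the protein gene share was 3.01%, 2.00% and 2.91%, and in female Ptk6-/- controls 4.15%, 5.47% and 8.24%, without overlap. With succinate it was 2.43%, 12.9% and 3.54% in female wild type mice, the 12.9% in the library with heart transcripts, and 2.84%, 1.54% and 4.33% in female Ptk6-/- mice. The 95% Wilson intervals are narrow beside these differences (12.88% to 12.90% for the highest share and 1.456% to 1.473% in the shallowest library), and cover counting error only. The ratio of males to females was 0.656 (log2 difference -0.61, exact permutation test of sex within strata, two-sided, p = 0.0504, adjusted p = 0.227 over 9 share tests). Without the 3 libraries that stand apart the log2 difference was -0.22 (exact permutation p = 0.377), and with the counts of the near-identical copies added it was -0.62 (exact permutation p = 0.0377). Genotype (ratio of Ptk6-/- to wild type 1.24, exact permutation p = 0.349) and succinate (ratio to control 0.891, exact permutation p = 0.618) did not pass the test over all 24 libraries.

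**Figure D2:**
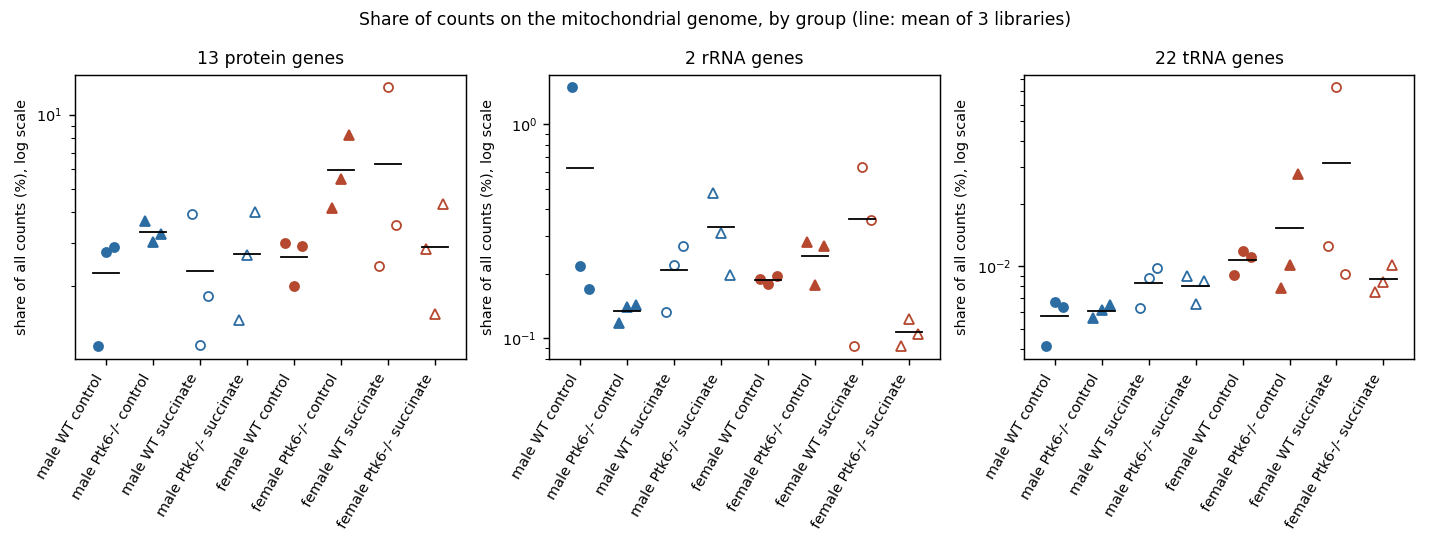
Share of each library's counts (percent, log scale) on protein, rRNA and tRNA genes of the mitochondrial genome, by group, with 1 point per library and lines at the mean of 3 libraries. The tRNA points of males lie lower than those of females in most groups, and the highest rRNA point is the male wild type control library with 51.2% cytosolic 18S rRNA.

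The rRNA share showed no sex, genotype or succinate difference that passed the test. mt-Rnr1 codes for the rRNA of the small and mt-Rnr2 for that of the large mitochondrial ribosomal subunit. In male wild type controls they took 1.48%, 0.218% and 0.169% of counts, and in male Ptk6-/- controls 0.118%, 0.140% and 0.142%. In succinate males the share was 0.133%, 0.220% and 0.270% in wild type and 0.478%, 0.311% and 0.197% in Ptk6-/- mice. The highest male values, 1.48% and 0.478%, were those of the 2 libraries with most 18S rRNA.
In females the rRNA share was 0.189%, 0.178% and 0.194% in wild type controls, 0.281%, 0.177% and 0.270% in Ptk6-/- controls, 0.0917%, 0.629% and 0.358% in wild type succinate and 0.0922%, 0.123% and 0.105% in Ptk6-/- succinate mice. The ratio of males to females was 1.24 (exact permutation p = 0.444), that of Ptk6-/- to wild type 0.718 (exact permutation p = 0.243) and that of succinate to control 0.944 (exact permutation p = 0.840). Both rRNAs moved together, with mt-Rnr2, the longer gene, at 1.5 to 2.15 counts per count of mt-Rnr1.

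The shares of mitochondrial and cytosolic rRNA varied together over the libraries. The log2 share of mitochondrial rRNA and that of Rn18s-rs5 had a Pearson's r of 0.79 (permutation p = 2e-05, adjusted 6e-05 over 9 relations) and a Spearman's rho of 0.67 (permutation p = 0.00048, adjusted 0.00108) over 24 libraries, and r was 0.76 within groups. Without the 2 libraries with most 18S rRNA, r was 0.63 (permutation p = 0.00164). Both are shares of 1 total, and the cause of the relation was not tested. The protein gene share and 18S rRNA had r = -0.34 (permutation p = 0.107), rho = -0.40 (permutation p = 0.057) and r = -0.58 within groups, and r was -0.01 without the same 2 libraries. No relation passed the test between the protein gene share and the mitochondrial rRNA share (r = -0.08, permutation p = 0.707).

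The tRNA share was lower in males than in females in all 4 strata, and here the difference passed the test. Adaptor molecules of translation, tRNAs are short and carry no long poly(A) tail, and their genes took 0.00413% to 0.0726% of counts. These genes are 59 to 75 bases long, and the reads 150 bases. A read of full length on a tRNA gene thus reaches beyond it. Mature tRNAs and longer transcripts that hold the tRNA cannot be told apart in these counts, here and below. The share was 0.00413%, 0.00670% and 0.00637% in male wild type controls and 0.00565%, 0.00614% and 0.00653% in male Ptk6-/- controls. With succinate it was 0.00631%, 0.00874% and 0.00981% in male wild type and 0.00901%, 0.00657% and 0.00849% in male Ptk6-/- mice. The highest male value was the 0.00981%.
In females the tRNA share was 0.00912%, 0.0119% and 0.0111% in wild type controls and 0.00785%, 0.0102% and 0.0278% in Ptk6-/- controls. With succinate it was 0.0125%, 0.0726% and 0.00920% in female wild type and 0.00750%, 0.00844% and 0.0101% in female Ptk6-/- mice. The controls of the wild type did not overlap between the sexes, nor did the controls of the knockout, whereas the succinate groups overlapped in both genotypes. The ratio of males to females was 0.550 (log2 difference -0.86, exact permutation test within strata, two-sided, p = 0.0003, adjusted p = 0.0027 over 9 share tests). By stratum the ratio was 0.528 in wild type controls, 0.468 in Ptk6-/- controls, 0.402 in wild type succinate and 0.922 in Ptk6-/- succinate mice. Without the 3 libraries that stand apart the log2 difference was -0.60 (exact permutation p = 0.00065), and without 18S rRNA in the total it was -0.74 (exact permutation p = 0.00345).
Neither genotype (ratio 0.862, exact permutation p = 0.563) nor succinate (ratio 1.24, exact permutation p = 0.346) passed the test for tRNAs. In the succinate test the unadjusted p of the tRNA share was under 0.05 only where replicate 3 of the female Ptk6-/- controls was left out (log2 difference 0.45, exact permutation p = 0.0309).

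Of the 22 tRNA genes, 8 are on the minus strand, and mt-Ts1 and mt-Te among them led the counts. Per kilobase of gene, the median over 24 libraries was 620 CPM for mt-Ts1, 261 CPM for mt-Te and 84.2 CPM for mt-Tl1, and 34.6 CPM for mt-Tn, the next. mt-Ts1 alone made up 31% to 62.7% of tRNA counts. At the other end mt-Tv, the valine tRNA that lies between the rRNA genes, had 56 counts in all 24 libraries together. Of the 22, 19 had at least 10 counts in at least 3 libraries and 5 had at least 10 in every library. mt-Ts1 was at 19.1 to 56.9 CPM (median 30.5) in the 12 male and 34.3 to 279 CPM (median 54.2) in the 12 female libraries, and mt-Te at 9.73 to 42.2 CPM (median 12.4) in males and 13.4 to 144 CPM (median 20.6) in females. The ranges overlapped between the sexes for both.

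Gene by gene, 0 of 34 members tested were called for sex over all 24 libraries, in a fit with sex, genotype and succinate as terms (edgeR's quasi-likelihood test, Benjamini-Hochberg adjusted p under 0.05 and at least 2-fold), where 0.134% of all genes tested were called. At an unadjusted p under 0.05 there were 19 (14.6% of all genes), and DESeq2 called 5 (1.02% of all genes) and voom 0. All 13 protein genes (median log2 difference of males to females -0.95) and all 19 tRNA genes tested (median -1.08) were lower in males, against a median of -0.03 over all genes, and both rRNA genes were higher (1.00 and 1.04). The smallest adjusted p of a member was that of mt-Co2 (log2 difference -0.90 ± 0.26 SE, adjusted p = 0.143). mt-Ts1 had a log2 difference of -1.08 ± 0.32 (adjusted p = 0.152) and mt-Te of -1.29 ± 0.51 (adjusted p = 0.254). mt-Te was at -0.57 (adjusted p = 0.607) without replicate 3 of the female Ptk6-/- controls and at -0.77 without the library with heart transcripts, which left mt-Ts1 at -0.68 (adjusted p = 0.288). Without the 3 libraries that stand apart the median was -0.57 for protein genes, -0.74 for tRNA genes and -0.04 for the rRNA genes, which were then no longer higher in males. These log2 differences are relative to TMM-scaled library sizes, whereas the shares above are of all counts. For genotype over all libraries 0 of 34 were called (2 at an unadjusted p under 0.05 against 12.8% of all genes, 0 by DESeq2, 4 by voom, background 0.0184% by edgeR and 5.5% by voom) and for succinate 0 of 34 (3 at an unadjusted p under 0.05 against 16% of all genes, 0 by DESeq2 and 0 by voom, background 0.525%).

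Levels of the protein genes were compared per kilobase, by their median over 24 libraries. mt-Co1, the catalytic subunit of complex IV, led with 8891 CPM per kilobase, followed by mt-Co2 (3762), mt-Atp6 (3080), mt-Co3 (2846), mt-Nd1 (2274), mt-Cytb (2269), mt-Nd6 (2140), mt-Atp8 (1757), mt-Nd4 (1167), mt-Nd5 (756), mt-Nd2 (685), mt-Nd4l (544) and mt-Nd3 (286). Complex IV and ATP synthase genes thus stood above most complex I genes. mt-Co1 was above mt-Co2 in 22 of 24 libraries, mt-Co2 above mt-Atp6 in 18 and mt-Co3 above mt-Nd1 in 20. Neighbours lower down changed places: mt-Nd1 was above mt-Cytb in 14 libraries, mt-Nd6 above mt-Atp8 in 13 and mt-Nd5 above mt-Nd2 in 12. The rRNA genes stood at 766 (mt-Rnr2) and 736 CPM per kilobase (mt-Rnr1), far below mt-Co1 after poly(A) selection. The order of the protein and rRNA genes was the same by deposited FPKM, but the near-identical copies share the reads of 7 of them.

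**Figure D3:**
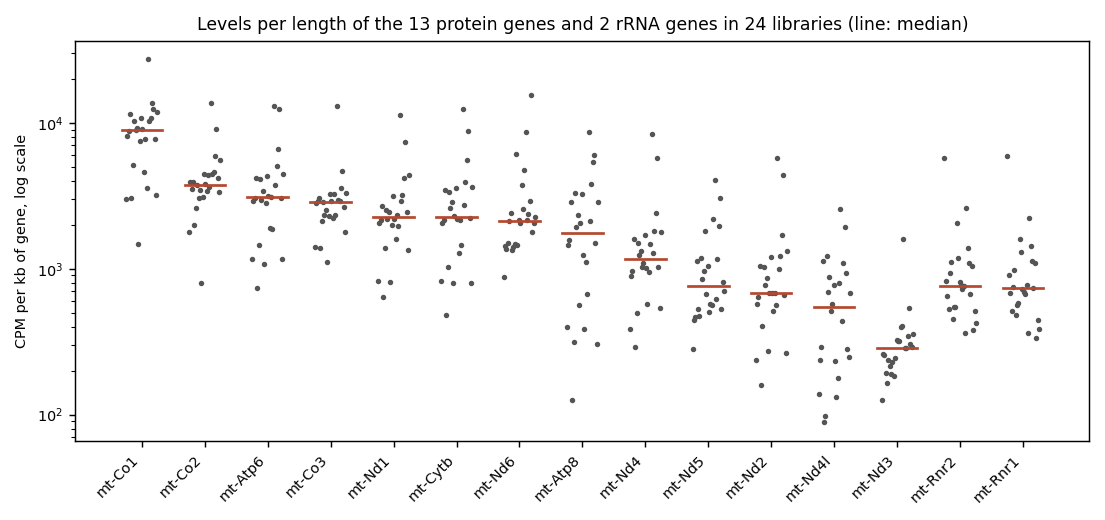
Level of the 13 protein genes and the 2 rRNA genes in CPM per kilobase (log scale), with 1 point per library and the median over 24 libraries as a line, ordered by median within protein and rRNA genes. mt-Co1 leads at a median of 8891, and mt-Nd3 is the lowest protein gene at 286.

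mt-Nd6, the only protein gene on the minus strand, varied widely between libraries. It took 1.89% to 21.6% of protein gene counts in a library, with a median of 3.21%. The highest value was in replicate 1 of the male Ptk6-/- succinate group, the library with 29.7% 18S rRNA, where mt-Co1 took 15.7% of protein gene counts against 22.9% to 46.9% elsewhere. In the other libraries of that group mt-Nd6 took 2.82% and 2.79%. Values of 9.55% to 10.1% were found in replicate 2 of the male wild type succinate group, replicate 2 of the female wild type controls, replicate 1 of the female wild type succinate group and replicate 3 of the female Ptk6-/- controls, and all others were at 6.96% or below. mt-Nd5, which overlaps mt-Nd6 on the opposite strand, took 2.95% to 22.6% of protein gene counts and its highest value was in the same male Ptk6-/- succinate library. The next highest values of mt-Nd5 were 16.6% in replicate 1 of the female wild type succinate group, 9.56% in replicate 2 of the female Ptk6-/- succinate group and 8.34% in replicate 2 of the male wild type succinate group. In the other 2 libraries named for mt-Nd6 it took 5.19% (female wild type control) and 6.80% (female Ptk6-/- control), so that the 2 genes were not always high in the same libraries.

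The tRNA next to mt-Nd6 on the minus strand, mt-Te (mt-Nd6 is at chrMT:13552-14070), followed it closely. Over 24 libraries the log2 shares of mt-Nd6 and mt-Te had r = 0.97 and rho = 0.97 (permutation p = 1e-05 for each, the smallest 100000 resamples can give, adjusted 4e-05), and r was 0.97 without the 2 libraries highest in mt-Nd6 and 0.95 within groups. With mt-Cytb, its neighbour on the plus strand (chrMT:14145-15288), mt-Te had r = 0.36 (permutation p = 0.0797) and rho = 0.07. mt-Ts1 had r = 0.35 (permutation p = 0.10) with mt-Co1, whose end it overlaps on the other strand, and r = 0.75 (permutation p = 0.00012, adjusted 0.00027) with mt-Nd6, which was 0.54 (permutation p = 0.00964) without 2 libraries. On the plus strand, mt-Tl1 had r = 0.93 and rho = 0.94 (permutation p = 1e-05 for each) with mt-Nd1, which starts at the base after it, and r was 0.88 without 2 libraries. A tRNA gene of 69 (mt-Te) or 75 bases (mt-Tl1) is shorter than a read of 150 bases. The same reads can therefore lie on it and on the adjoining gene of its strand. The high r of mt-Te with mt-Nd6 and of mt-Tl1 with mt-Nd1 can thus be partly built in, and how much was not tested. These pairs were chosen after the values were seen. All points share the library and its total, and the differences between the correlations were not tested.

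**Figure D4:**
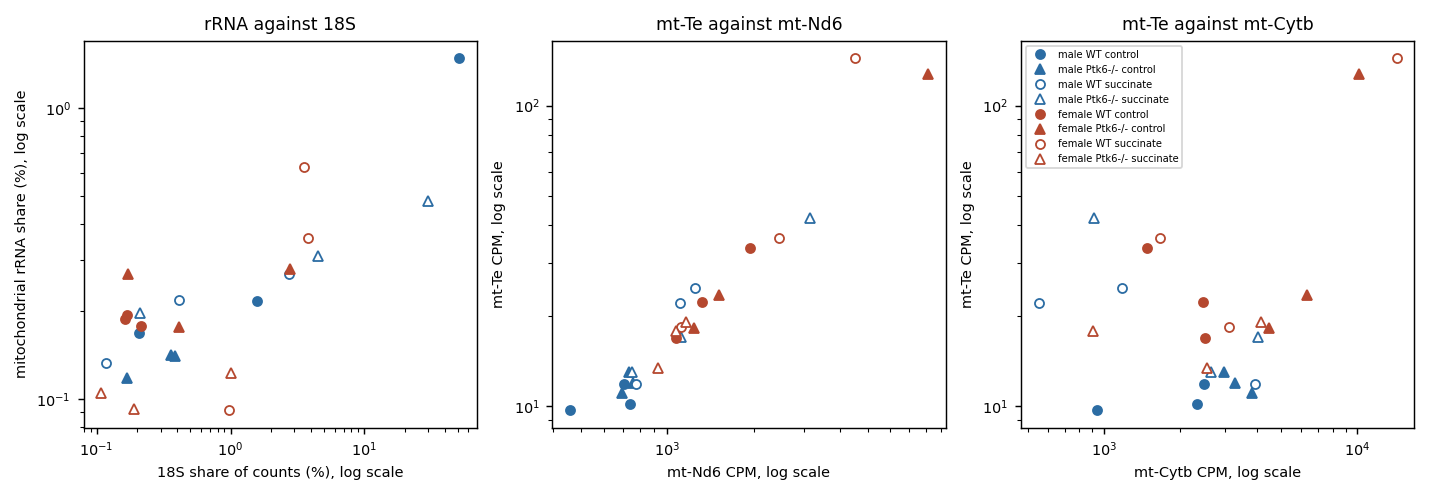
Relations over the 24 libraries on log scales: mitochondrial rRNA share against 18S share in percent (left), and mt-Te against mt-Nd6 (middle) and against mt-Cytb (right) in CPM, with 1 point per library. mt-Te follows mt-Nd6 over the whole range (r = 0.97) and not mt-Cytb (r = 0.36). mt-Nd6 adjoins mt-Te on the same strand, so that reads can lie on both.

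Loss of PTK6 was first compared in control mice. In males, mt-Nd4l, a small membrane subunit of complex I, was higher in every Ptk6-/- control than in every wild type control. Its level was 41.3, 70.0 and 85.7 CPM in male wild type and 362, 207 and 261 CPM in male Ptk6-/- controls. The log2 fold change was 1.67 ± 0.19 (SE; edgeR's quasi-likelihood test, Benjamini-Hochberg adjusted p = 0.0198), the only call among 32 members tested, where 0.739% of all genes tested were called.
Its near-identical copy Gm10222 had a log2 fold change of 1.63 ± 0.19 (adjusted p = 0.0200), and the reads of both cannot be told apart. Leaving out replicate 2 or replicate 3 of the wild type or replicate 3 of the Ptk6-/- controls took the adjusted p of mt-Nd4l to 0.0803, 0.0827 and 0.10.

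Without the 2-fold threshold, 3 of 32 members passed in control males (4.23% of all genes did), 11 of 32 had an unadjusted p under 0.05 against 25.2% of all genes, and DESeq2 and voom passed 9 (15.5% of all genes) and 10 (21.2%). mt-Nd5, a large complex I subunit, was at 512, 816 and 856 CPM in wild type and 2148, 1540 and 1772 CPM in Ptk6-/- controls (log2 fold change 0.88 ± 0.20, edgeR adjusted p = 0.0489). The groups did not overlap. mt-Ts1 was lower, at 19.1, 41.9 and 36.3 CPM against 24, 25.4 and 26.1 CPM (log2 fold change -0.74 ± 0.13, edgeR adjusted p = 0.0345). The 19.1 CPM is of the library with 51.2% 18S rRNA, whose CPM are lowered by it, and per TMM-scaled library size the groups did not overlap. With the replicate number as a block both missed the threshold (adjusted p = 0.0596 for mt-Nd5 and 0.0715 for mt-Ts1), while mt-Nd4l stayed called (adjusted p = 0.0356). With all 24 libraries in 1 edgeR fit mt-Nd4l, mt-Nd5 and mt-Ts1 all missed it (adjusted p = 0.930 for each). With 1 library left out at a time, mt-Nd5 missed the threshold in 5 of 6 fits (all but that without the library with 51.2% 18S rRNA, adjusted p up to 0.150) and mt-Ts1 in 4 of 6 (those without replicate 2 or 3 of either group, adjusted p up to 0.123).

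The other protein genes in control males did not pass. mt-Atp8 had a log2 fold change of 0.87 (adjusted p = 0.0788), mt-Nd2 0.53, mt-Nd4 0.52, mt-Cytb 0.48, mt-Atp6 0.21, mt-Co1 0.20, mt-Nd1 0.17, mt-Co2 -0.23, mt-Nd6 -0.23, mt-Co3 -0.27 and mt-Nd3 -0.40. mt-Nd4 gave 0.52 over the whole gene, while Gm28439, identical to its start, gave 1.11 ± 0.16 (adjusted p = 0.0262), which missed the threshold in 4 of 6 fits that left out 1 library (adjusted p up to 0.121). mt-Rnr1 was at 5701, 865 and 655 CPM in wild type and 463, 537 and 555 CPM in Ptk6-/- controls, with a log2 fold change of -3.24 ± 1.06 (adjusted p = 0.106) that was -0.61 without the library with 51.2% 18S rRNA (adjusted p = 0.0971). mt-Rnr2 gave -3.26 ± 1.07 (adjusted p = 0.108). Both rRNA genes were lower in every Ptk6-/- control, and most of the size came from that library. Summed goblet cell markers were at 6428 to 13995 CPM in male wild type and 16172 to 17677 CPM in male Ptk6-/- controls, without overlap. By log2 fold change 2 of 7 tested were higher and 5 lower. Their part in the differences between control males was not tested.

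In control females none of 32 members was called by edgeR (background 0.0158%), 11 had an unadjusted p under 0.05 against 11.1% of all genes, and DESeq2 called 9 (1.36% of all genes) and voom 7 (10.4%). Summed enterocyte markers were at 47483 to 53489 CPM in wild type and 27403 to 46342 CPM in Ptk6-/- controls, without overlap. By log2 fold change 4 of 11 tested were higher in Ptk6-/- controls. Sums also stood apart for heart muscle (43.5 to 70.7 and 22.8 to 36.8 CPM, 2 of 10 tested higher) and skeletal muscle genes (29.3 to 39.9 and 21.8 to 24.9 CPM, 1 of 4 higher). Those of lung genes were 2.38 to 3.32 and 14.5 to 15.5 CPM (4 of 5 higher). The part of these markers in the differences was not tested. All 13 protein genes had positive log2 fold changes, from 0.20 to 2.78 with a median of 1.63, against a median of 0.04 over all genes. mt-Nd4l was at 69.7, 39.3 and 53.1 CPM in wild type and 328, 574 and 279 CPM in Ptk6-/- controls (log2 fold change 2.78 ± 0.33, edgeR adjusted p = 0.124). mt-Atp8 was at 252, 78.3 and 225 CPM in wild type and 781, 1105 and 1229 CPM in Ptk6-/- controls (2.50 ± 0.50, edgeR adjusted p = 0.367). mt-Nd5 gave 1.96 ± 0.52, mt-Nd4 2.07 ± 0.62, mt-Nd2 2.06 ± 0.63, mt-Cytb 1.75 ± 0.52, mt-Atp6 1.63 ± 0.54, mt-Nd6 1.48 ± 0.86 and mt-Nd1 1.32 ± 0.50, each with an edgeR adjusted p of 0.367 or above. For mt-Nd4l and mt-Atp8 the 3 Ptk6-/- libraries were all above the 3 wild type libraries. Replicate 3 of the Ptk6-/- controls differed from the other two in mt-Nd6 (8121 against 1240 and 1513 CPM), and without it edgeR called 7 of 32 members against 9.65% of all genes. mt-Nd4l was then at 2.84 (adjusted p = 0.0275), mt-Nd5 at 1.27 (adjusted p = 0.0325), mt-Nd4 at 1.09 (adjusted p = 0.0447) and mt-Nd2 at 0.99 (adjusted p = 0.0378), and the median of the protein genes was 0.88.

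**Figure D5:**
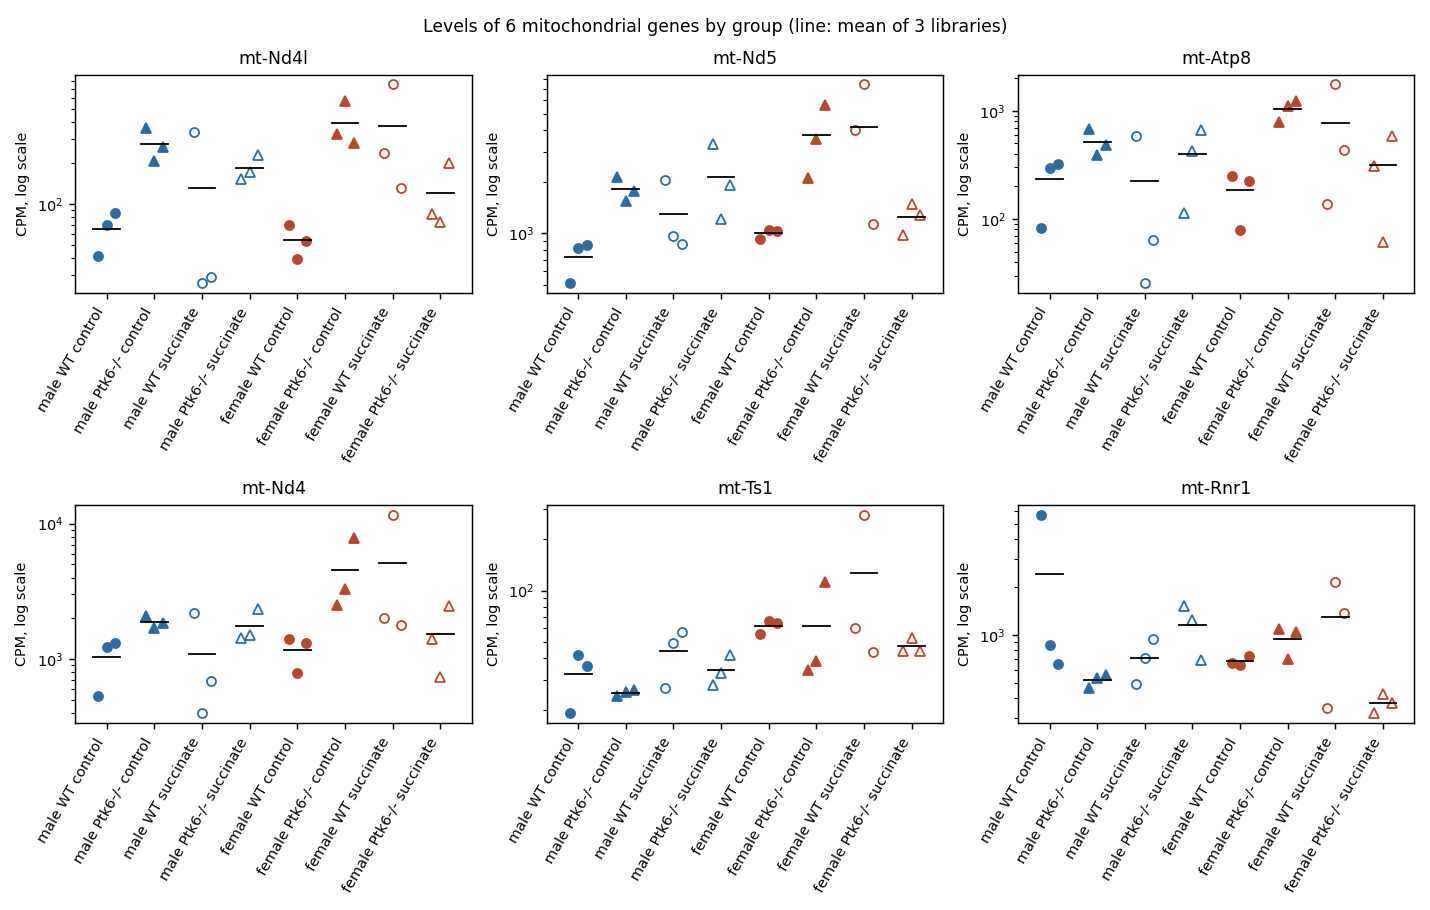
CPM (log scale) of mt-Nd4l, mt-Nd5, mt-Atp8, mt-Nd4, mt-Ts1 and mt-Rnr1 in the 24 libraries by group, with lines at the mean of 3 libraries. mt-Nd4l and mt-Nd5 are higher in every Ptk6-/- control than in every wild type control of the same sex, and the succinate groups overlap between genotypes for mt-Nd4l in both sexes.

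Many of the same genes stood apart without overlap in both sexes, in CPM of TMM-scaled library sizes. The comparisons in males and females share no control samples. In males 9 of 32 members (28.1%) were higher in all 3 Ptk6-/- controls than in all 3 wild type controls, against 16.4% of all genes, and 5 (15.6%) were lower, against 16.3%. In females 13 of 32 (40.6%) were higher, against 9.51% of all genes, and 0 were lower. Higher in both were 8 of 32 members: mt-Atp8, mt-Cytb, mt-Nd2, mt-Nd4, mt-Nd4l, mt-Nd5, mt-Tl1 and mt-Tm. Of all 18469 genes tested in both sexes 636 (3.44%) were higher in both. The 8 are 88.9% of the 9 members of males and 61.5% of the 13 of females, shares that the 3.44% is no background for. mt-Nd4l overlaps mt-Nd4 and mt-Tm adjoins mt-Nd2, so that the 8 are not independent. Complex IV genes are not among the 8. The interaction of sex and genotype in controls called 0 of 32 members (9 at an unadjusted p under 0.05 against 4.64% of all genes, 0 by DESeq2 and 0 by voom, background 0%), so that a difference between the sexes in the genotype effect was not shown.

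In succinate mice the genotypes overlapped for all 32 members in males, where 8.83% of all genes stood apart in either direction, and for 28 of 32 in females. The 4 that did not overlap in females (12.5%, against 4.34% of all genes), the tRNA genes mt-Tq, mt-Tw, mt-Ta and mt-Tn, were lower in Ptk6-/- mice. edgeR called 0 of 32 in males (0 at an unadjusted p under 0.05 against 2.72% of all genes, 0 by DESeq2 and 8 by voom, background 0% by edgeR and 9.52% by voom) and 0 of 32 in females (21 at an unadjusted p under 0.05 against 4.52%, 0 by DESeq2 and 0 by voom, background 0%). mt-Nd4l was at 337, 26.3 and 28.9 CPM in male wild type and 153, 170 and 230 CPM in male Ptk6-/- succinate mice. In female succinate mice it was at 238, 757 and 131 CPM in wild type and 84.2, 73.8 and 202 CPM in Ptk6-/-. The wild type spread in both sexes came with 1 library far above the others, in females the one with heart transcripts. All 32 members had negative log2 fold changes in females (median -2.03), with that library in the wild type group. Without it 30 of 32 were negative with a median of -0.76, and 3 had an unadjusted edgeR p under 0.05, against 21 with it. Enterocyte markers summed to 26171 to 36522 CPM in the female wild type and 19543 to 25872 CPM in the female Ptk6-/- succinate mice. By log2 fold change 2 of 11 tested were higher in Ptk6-/- mice, and the part of these markers in these differences was not tested.

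Succinate was compared with water within each sex and genotype, and edgeR called no member in any of the 4 comparisons. In male wild type mice 0 of 32 were called (2 at an unadjusted p under 0.05 against 4.07% of all genes, 0 by DESeq2, 7 by voom, background 0% by edgeR and 7.81% by voom), and without replicate 1 of the succinate group edgeR called 4 (5.8% of all genes). In female wild type mice 0 of 33 were called (12 at an unadjusted p under 0.05 against 7.77% of all genes, 5 by DESeq2, 0 by voom, background 0% by edgeR and 1.37% by DESeq2), and all 33 log2 differences were positive, with a median of 1.83. mt-Nd4l gave 2.92 ± 0.69 there (edgeR adjusted p = 0.469). Without the library with heart transcripts 25 of 32 were positive with a median of 0.28, and 3 had an unadjusted edgeR p under 0.05. mt-Nd4l was then at 1.82 (edgeR adjusted p = 0.736). Without replicate 3 of the succinate group edgeR called 3 members (3.23% of all genes). In these females enterocyte markers were lower with succinate (26171 to 36522 against 47483 to 53489 CPM), and markers of tuft cells (159 to 406 against 55.6 to 86.3 CPM) and smooth muscle (4441 to 7482 against 3430 to 4059 CPM) were higher, in summed CPM without overlap. Summed ileum markers were also lower (737 to 1507 against 1547 to 2912 CPM). By log2 difference 3 of 11 enterocyte markers tested and 1 of 4 ileum markers were higher, as were 10 of 10 of tuft cells and 8 of 8 of smooth muscle. The part of these markers in the result was not tested.

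In Ptk6-/- mice the log2 differences of the rRNA genes with succinate were positive in males and negative in females, and neither passed the test. In males 0 of 32 were called (6 at an unadjusted p under 0.05 against 7.75% of all genes, 0 by DESeq2 and 0 by voom, background 0%), and 10 members (31.2%) were higher without overlap in CPM of TMM-scaled library sizes, against 11.4% of all genes. mt-Rnr1 was at 463, 537 and 555 CPM in male Ptk6-/- controls and 1516, 1240 and 698 CPM with succinate (log2 fold change 2.06 ± 0.64, edgeR adjusted p = 0.600). The 2 highest of these are the libraries of that group with 29.7% and 4.49% 18S rRNA. mt-Nd6 gave 2.34 ± 0.90 (edgeR adjusted p = 0.600), from 696, 735 and 761 CPM to 3158, 755 and 1115 CPM. Without the library with 29.7% 18S rRNA the log2 fold change was 1.03 for mt-Rnr1 (edgeR adjusted p = 0.441) and 0.47 for mt-Nd6 (edgeR adjusted p = 0.458). Summed heart muscle genes (10 of 10 tested higher) were at 22.4 to 42.5 CPM in these controls and 51.5 to 114 CPM with succinate, without overlap. Their part in the result was not tested.
In Ptk6-/- females 0 of 32 were called (14 at an unadjusted p under 0.05 against 10.7% of all genes, 3 by DESeq2, 2 by voom, background 0.0879% by edgeR, 2.24% by DESeq2 and 1.03% by voom), and 11 (34.4%) were lower without overlap, against 11% of all genes. Beside this, summed enterocyte markers (11 of 12 tested, 3 higher by log2 fold change) were at 27403 to 46342 CPM in controls and 19543 to 25872 CPM with succinate. Tuft cell markers (10 of 10 higher) were at 57.0 to 77.7 and 251 to 569 CPM, and smooth muscle markers (7 of 8 higher) at 2720 to 3935 and 4587 to 6040 CPM. Heart muscle genes (3 of 6 higher) were at 22.8 to 36.78 and 36.81 to 60.5 CPM. Skeletal muscle genes (4 of 5 higher) were at 21.8 to 24.9 and 34.5 to 56.1 CPM. Lung genes (4 of 5 lower) were at 14.5 to 15.5 and 8.91 to 11.5 CPM. Each sum stood apart without overlap, and the part of these markers in the result was not tested. mt-Rnr1 was at 1087, 708 and 1042 CPM in female Ptk6-/- controls and 322, 422 and 371 CPM with succinate (log2 fold change -1.52 ± 0.40, edgeR adjusted p = 0.339). mt-Nd4l was at 328, 574 and 279 CPM in controls and 84.2, 73.8 and 202 CPM with succinate (log2 fold change -1.87 ± 0.43, edgeR adjusted p = 0.274). These comparisons share the Ptk6-/- controls with the genotype comparisons above. The interactions of genotype and succinate called 0 of 32 members in males (3 at an unadjusted p under 0.05 against 3.8% of all genes, 0 by DESeq2 and 0 by voom, background 0%) and 0 of 33 in females (27 at an unadjusted p under 0.05 against 6.46%, 4 by DESeq2 and 0 by voom, background 0% by edgeR and 0.278% by DESeq2). Without the library with heart transcripts 10 of 33 had an unadjusted edgeR p under 0.05 in females, and the median log2 value went from -3.21 to -1.43.

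Nuclear genes for respiratory chain subunits had negative log2 fold changes in male Ptk6-/- controls, and some passed the test. Of 92 listed nuclear subunits of the respiratory chain 76 were tested, and 16 passed at an edgeR adjusted p under 0.05 without reaching 2-fold, all lower in Ptk6-/- controls (1.87% of all genes tested passed lower). The median log2 fold change of the 76 was -0.60, against 0.02 over all genes, with 75 of 76 negative. Examples are the complex I subunits Ndufs8 (-0.72 ± 0.12, adjusted p = 0.0310) and Ndufb2 (-0.74 ± 0.14, adjusted p = 0.0350) and the ATP synthase subunit Atp5h (-0.78 ± 0.16, adjusted p = 0.0387). These calls depend on the libraries and the fit: 0 of 76 passed without replicate 2 or 3 of either group, with the replicate block, with all 24 libraries in 1 fit or with limma on FPKM, while DESeq2 passed 56 and voom 46 (7.44% and 9.31% of all genes passed lower). Without the library with 51.2% 18S rRNA 8 passed, and over the edgeR fits that left out 1 library the median lay between -0.68 and -0.46.
In control females the median was -0.52 with 74 of 76 negative and 0 passing by edgeR (10 at an unadjusted p under 0.05), against 4 by DESeq2 and 67 by voom, all lower (2.05% and 20.7% of all genes passed). Without replicate 3 of the female Ptk6-/- controls 64 passed lower by edgeR, against 8.93% of all genes, and the median was -1.33. Over all libraries, the summed share of these nuclear subunits and the mitochondrial protein gene share had r = 0.10 (permutation p = 0.639), and r = -0.47 (permutation p = 0.026) without replicate 1 of the male wild type controls and replicate 2 of the female wild type succinate group. Over all 24 libraries rho was -0.16 (permutation p = 0.454). Over all 24 libraries succinate gave a positive log2 difference in 76 of 76 (median 0.63) with 0 passing by edgeR (54 at an unadjusted p under 0.05 against 16% of all genes, smallest adjusted p 0.0716). DESeq2 passed 12 and voom 60, all higher (3.26% and 13.6% of all genes passed in either direction). Without the 3 libraries that stand apart the median was 0.43, and 0 passed.

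Lists of genes that make, process and use mitochondrial RNA held few changes. Of 22 genes for RNA processing and stability, Hsd17b10, a subunit of the mitochondrial RNase P that cuts precursors at tRNAs, passed in male Ptk6-/- controls (-0.71 ± 0.11, edgeR adjusted p = 0.0285). This share, 1 of 22, is near the 4.23% of all genes that passed, and the call was lost with the replicate block (adjusted p = 0.0608) and in 4 of 6 fits that left out 1 library, those without replicate 2 or 3 of either group (adjusted p up to 0.123). Rexo2, which degrades short RNA in mitochondria, was the 1 of 22 that passed with succinate over all libraries (0.89 ± 0.19, edgeR adjusted p = 0.0270), where 0.636% of all genes passed, and it missed the threshold in 9 of 24 fits that left out 1 library (adjusted p up to 0.0726) and without the 3 libraries that stand apart (adjusted p = 0.0777). Of 18 genes for mitochondrial DNA replication and transcription, 23 for rRNA and tRNA modification, 20 mitochondrial aminoacyl-tRNA synthetases and 10 biogenesis regulators, 0 passed in control males, with 2, 3, 4 and 1 at an unadjusted p under 0.05, shares below the 25.2% of all genes. The synthetase list summed to 13906 CPM and 16858 CPM in the 2 libraries with most 18S rRNA and to 313 to 2425 CPM elsewhere. The 2425 CPM was in the library with the next most 18S rRNA (4.49%). Whether these counts come from synthetase transcripts was not tested. Lars2, a member of the list and the leucine tRNA synthetase of mitochondria, had a log2 fold change of -6.12 ± 1.88 in control males (edgeR adjusted p = 0.0923). It was -1.32 without the library with 51.2% 18S rRNA (adjusted p = 0.281). Lars2 was named after its values were seen.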

How the data were processed

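The authors deposited unnormalized read counts per gene and FPKM values for 24 libraries of poly(A) RNA from the distal jejunum (stranded dUTP libraries, paired reads of 150 bases). According to the study's methods, reads were trimmed with Cutadapt and mapped with HISAT2, and the FPKM values, as deposited, came from StringTie and ballgown. The submitters' processing notes name FastQC, StringTie and GRCm39; the program that counted reads, and how it treated strand and reads with several matches, is not given in the sources used here. All 37 mitochondrial genes had the same start, end and strand in GENCODE M21, from which sequences were taken; copies are transcripts with at least 90% identity over at least 100 bases (17 found, 7 of them near-identical).

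Shares were computed per library with 95% Wilson intervals. Each of sex, genotype and succinate was tested on log2 shares by an exact permutation within the 4 strata of the other two (160000 assignments), and correlations with 100000 permutations. Gene by gene, 14 comparisons (8 of 2 groups, 3 interactions and 3 additive effects) were fitted over all genes that reached 10 counts in 3 or more libraries by edgeR 4.0.16 (quasi-likelihood test, TMM) in R 4.3.3. Calls needed an adjusted p (Benjamini-Hochberg) under 0.05 and at least 2-fold, the study's thresholds; the study names DESeq2, which was run here as an alternative (version 1.42.0), as were limma 3.58.1 (voom with sample weights, and log2(FPKM + 1) where the mean FPKM was 0.5 or more), other scalings, filters and totals, a replicate block, all 24 libraries in 1 fit, and each library left out in turn. Adding the near-identical copies, leaving out mt-Nd6 and leaving out 3 libraries together were chosen after the data were seen. The procedure was tested on simulated data. Replicate numbers name mice of different litters and do not pair them.

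The text names every protein and rRNA gene, the 3 tRNA genes with most counts, the lowest one and any called; of other lists, up to 3 genes that passed in each direction. The members, lists and tests were chosen with earlier results of these data known.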

Additional observations from a re-analysis of the deposited data

Results flagged for a closer look

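In Ptk6-/- mice the effect of succinate on 4 genes went in opposite directions in the sexes, with every library of males above its controls and every library of females below, in CPM of the TMM-scaled library sizes of each comparison. Of the genes tested in both sexes 0.401% showed this pattern, and of 32 members 4 did. mt-Rnr1 had a log2 difference of 2.06 in males and -1.52 in females, mt-Rnr2 of 2.39 and -1.27, mt-Ta (an alanine tRNA) of 1.18 and -0.92, and mt-Tn (an asparagine tRNA) of 1.31 and -0.90. None of these differences passed edgeR's test within a sex, and the difference between the sexes was not tested. mt-Ta and mt-Tn lie on the minus strand. In CPM of all counts these 2 overlapped in males, where replicate 2 of the succinate group was at 2.34 CPM for mt-Ta and 2.67 CPM for mt-Tn and replicate 3 of the controls at 2.47 and 2.75 CPM, while the rRNA genes did not overlap, and with TMM sizes set over all 24 libraries mt-Ta overlapped as well. Beside the rRNA values, replicates 1 and 2 of the male Ptk6-/- succinate group had 29.7% and 4.49% cytosolic 18S rRNA. Summed heart muscle genes were higher with succinate without overlap in males (22.4 to 42.5 and 51.5 to 114 CPM, 10 of 10 tested higher). The same held in females (22.8 to 36.78 and 36.81 to 60.5 CPM, 3 of 6 higher), and the part of these genes was not tested. Without replicate 1 of that group the male log2 differences were 1.03 for mt-Rnr1, 1.07 for mt-Rnr2, 0.42 for mt-Ta and 0.51 for mt-Tn. Groups of 3 were not tested for single outlying libraries.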

How the results depend on the processing

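Counts of members called changed with the tool and with single libraries. In control males (1 by edgeR) voom called 3 (3.00% of all genes), limma on FPKM 2 (1.21%), all 24 libraries in 1 fit 0, the replicate block 1 (0.026%), and leaving out the 3 libraries with heart transcripts or most 18S rRNA 2 (1.10%). In control females (0) DESeq2 called 9 and voom 7. For genotype with succinate, voom called 8 in males. For succinate, voom called 7 and limma on FPKM 1 (0.909% of all genes) in male wild type mice, DESeq2 5 in female wild type mice, and DESeq2 3 and voom 2 in female Ptk6-/- mice, all against 0. DESeq2 called 4 for the interaction in females and 5 for sex over all libraries, and voom 4 for genotype over all libraries. Leaving out each library in turn gave 0 to 2 in control males, 0 to 7 in control females, 0 to 4 for succinate in male wild type and 0 to 3 in female wild type mice. mt-Nd4l in control males was lost without replicate 2 or 3 of the wild type or replicate 3 of the Ptk6-/- controls, and 2 members were called without replicate 1 of the wild type.

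Of the shares, the tRNA difference between the sexes had an unadjusted p under 0.05 under every alternative run (p from 8.75e-05 to 0.0410 by exact permutation). The protein gene difference between the sexes, whose p adjusted over 9 tests was 0.227, had an unadjusted p under 0.05 with summed FPKM (-0.74), with listed copies added (-0.62) and with near-identical copies added (-0.62). The unadjusted p was also under 0.05 without any 1 of 8 libraries (exact permutation p from 0.0197, not adjusted here): replicate 2 or 3 of the male wild type controls, replicate 1 of the male wild type or 3 of the male Ptk6-/- succinate group, replicate 2 of the female wild type or 1 of the female Ptk6-/- controls, and replicate 1 of the female wild type or 2 of the female Ptk6-/- succinate group. It lay between -0.73 and -0.43 with each library left out. The rRNA difference with succinate lay between -0.23 and 0.16 and turned positive without replicate 1 of the male wild type controls (0.16) or of the female wild type succinate group (0.11). With each library left out, the rRNA difference between the sexes lay between 0.0693 and 0.465, and that with genotype between -0.675 and -0.231. Under the other alternatives run they shrank to 0.140 and -0.161 at the least. The tRNA difference with genotype lay between -0.36 and 0.0163, positive without replicate 2 of the female wild type succinate group, and that with succinate between 0.0857 and 0.46. The causes were not tested.

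Same-numbered replicates deviated together no more than others (24 correlations from -0.356 to 0.234, of which 2 were over 0.1). With the replicate block the genes passing at an adjusted p under 0.05 in control males fell from 813 to 5. mt-Nd5, mt-Ts1, Gm28439, Hsd17b10 and the 16 nuclear subunits missed the threshold, and mt-Nd4l and Gm10222 stayed called. Few counts limit the tRNA genes below the first 5, and counts shared with nuclear copies limit 7 protein genes.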
